A study of Mus musculus with 6 samples.

Results

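The AP-2 genes *Tfap2a*, *Tfap2b*, *Tfap2c* and *Tfap2d* were examined through the open chromatin around them, in distal forelimb buds of mouse embryos with and without HOX13. A merged ATAC-seq peak was given to an AP-2 gene when its midpoint lay inside the gene or within 300 kb of the start of the gene in GENCODE, and to the nearest of the 4 genes where several qualified. By this rule 52 of the 61954 peaks in the deposited table were AP-2 peaks, of which 25 belonged to *Tfap2a*, 5 to *Tfap2b*, 22 to *Tfap2c* and none to *Tfap2d*. ATAC-seq marks open chromatin by where the transposase Tn5 inserts sequencing adapters. The wild-type group (WT) had 2 libraries and the *Hox13*-/- group had 2, the latter from embryos that carried null alleles of *Hoxa13* (*Hoxa13* Str) and *Hoxd13* (*Hoxd13* lacZ). Each library was made at E11.5 from 50000 cells of the left and right buds of 1 embryo, in both groups on a mixed C57Bl/6 and 129 background and with no other allele or treatment stated. The null alleles are not limited to the limb, and a bulk value adds up all cells of the bud, so fewer open cells and less open chromatin per cell cannot be told apart. Nothing was measured here about expression of the AP-2 genes.

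AP-2 proteins are transcription factors that bind GC-rich DNA as dimers, with the palindrome GCCNNNGGC as their typical site. *Tfap2a* and *Tfap2c* are best known from surface ectoderm, neural crest and placenta, and loss of *Tfap2a* in the mouse affects the face, body wall and limbs. *Tfap2b* acts in neural crest, kidney and limb, and changes in its human counterpart cause a syndrome that includes hand anomalies. *Tfap2d* is mainly a gene of the developing brain. HOXA13 and HOXD13 are the homeodomain proteins of the digit-forming part of the limb bud, and they favour sequences that end in TAAA.

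All values are regularized log values (rLog), a log2 measure corrected for library size that pulls each peak towards its own mean, most strongly where reads are few. A difference is the mean of the *Hox13*-/- libraries minus the mean of the WT libraries. It was tested with limma across all peaks, with Benjamini-Hochberg adjustment over all of them, and a peak was called when the adjusted p was under 0.05. With 2 libraries against 2, no exact permutation of the labels can give a two-sided p below 0.333, whereas limma borrows its estimate of the spread from all peaks. SE is the standard error from that fit. The numbers of reads behind a peak are not in the table, so its counting error is unknown.

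The changes around the AP-2 genes were modest on the rLog scale and ran in both directions. Of the 52 AP-2 peaks, 8 were lower in *Hox13*-/- (15.4%), against 8.31% of all peaks in the table, and 5 were higher (9.62%), against 11.4% of all peaks. No AP-2 peak differed by more than 2-fold in rLog in either direction, where 0.224% of all peaks were called lower and 0.313% higher past that limit. Because rLog pulls each peak towards its mean, such a limit passes few peaks, and the authors' own fold changes were not used. The differences of the 52 peaks ran from −0.61 to 0.63. At an unadjusted p under 0.05 in limma there were 16 lower and 8 higher AP-2 peaks, where 14.9% and 16.9% of all peaks had such a p. The median difference was −0.09, beside −0.01 over all peaks. The median rLog of the 52 peaks was 4.52 and 4.38 in the WT libraries and 4.25 and 4.24 in the *Hox13*-/- libraries, and the mean rLog was 4.54 and 4.52 in WT and 4.48 and 4.49 in *Hox13*-/-. Over all peaks the medians were higher, at 4.70 and 4.71 in WT and 4.74 and 4.74 in *Hox13*-/-. Both WT libraries were above both *Hox13*-/- libraries at 21 AP-2 peaks, where 29.6% of all peaks showed that order, and below both at 15, where 29.7% did. The counts leaned on single libraries, with 4 lower peaks left without *Hox13*-/- replicate 2, and 5 lower and 3 higher without WT replicate 1. Among the upper 50% of peaks by mean rLog, which held 20 AP-2 peaks, the median difference of the AP-2 peaks turned to 0.094, with 3 lower and 5 higher.

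**Figure D1:**
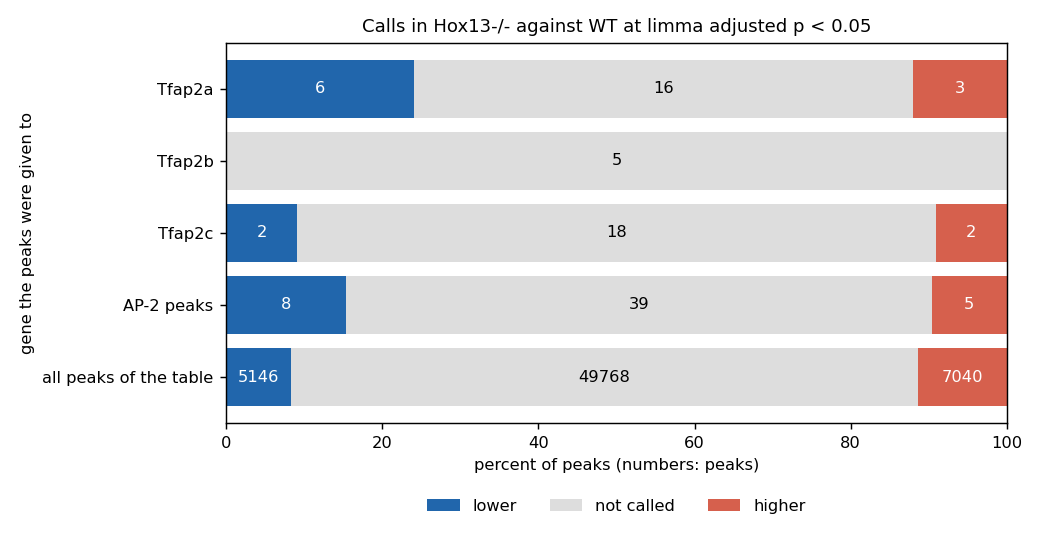
Share of peaks called lower, not called and called higher in *Hox13*-/- distal limbs (x axis, percent of peaks), for each AP-2 gene with peaks, for the 52 AP-2 peaks and for all 61954 peaks. Numbers in the bars are peaks, and *Tfap2a* holds 6 of the 8 lower calls while *Tfap2b* holds no call.

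The sequences below belong to the peaks on which the description turns, read from the plus strand of the GRCm38 genome, which is mm10. They are the called peaks with the smallest p around *Tfap2a* (2 lower, 1 higher) and the lower one of *Tfap2c* and, chosen after the values were seen, the *Tfap2a* peak at −121.4 kb, which holds the most HOX13-type matches, and a peak over an annotated start of *Tfap2a*. Longer peaks are shown by their central 200 bases, and capitals mark matches to CAATAAA or TCGTAAA, the HOX13-type motifs searched, or to GCCNNNGGC, the AP-2 type motif, each on both strands.
Tfap2a +37.8 kb (chr13:40700444-40700619): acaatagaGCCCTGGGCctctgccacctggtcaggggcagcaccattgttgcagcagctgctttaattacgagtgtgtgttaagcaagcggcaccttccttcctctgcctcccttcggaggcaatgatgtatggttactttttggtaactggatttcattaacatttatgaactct
Tfap2a +92.1 kb (chr13:40646222-40646421): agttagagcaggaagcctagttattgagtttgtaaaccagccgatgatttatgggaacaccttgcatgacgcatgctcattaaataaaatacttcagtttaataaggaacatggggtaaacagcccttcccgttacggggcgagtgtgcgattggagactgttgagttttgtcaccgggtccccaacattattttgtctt
Tfap2a −121.4 kb (chr13:40859643-40859842): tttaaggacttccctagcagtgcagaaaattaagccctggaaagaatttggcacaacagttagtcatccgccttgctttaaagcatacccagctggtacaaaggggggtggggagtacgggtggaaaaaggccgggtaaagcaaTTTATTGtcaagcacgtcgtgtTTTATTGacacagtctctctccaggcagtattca
Tfap2a +276.6 kb (chr13:40461702-40461901): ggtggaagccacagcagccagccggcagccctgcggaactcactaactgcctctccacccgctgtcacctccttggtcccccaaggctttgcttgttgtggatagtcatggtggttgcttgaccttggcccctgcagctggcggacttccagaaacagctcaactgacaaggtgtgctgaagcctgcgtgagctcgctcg
Tfap2c +296.7 kb (chr2:172846182-172846381): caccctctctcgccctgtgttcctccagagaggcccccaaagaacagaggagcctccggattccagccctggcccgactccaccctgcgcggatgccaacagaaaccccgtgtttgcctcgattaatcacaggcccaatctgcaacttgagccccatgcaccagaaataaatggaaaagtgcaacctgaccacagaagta
Tfap2a +6.7 kb (chr13:40731544-40731731): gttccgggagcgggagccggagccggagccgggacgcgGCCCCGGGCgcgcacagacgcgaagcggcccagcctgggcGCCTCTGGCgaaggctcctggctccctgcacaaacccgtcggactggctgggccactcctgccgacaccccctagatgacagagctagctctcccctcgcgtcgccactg

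Searched in the 200 bases around the midpoint, the HOX13-type motifs occurred in 4 AP-2 peaks (7.69%), against 5.49% of all peaks. None of the 8 lower AP-2 peaks had a match, where 10.9% of all lower peaks in the table did. Of the 5 higher AP-2 peaks 2 had one, where 6.29% of all higher peaks did. Counts this small do not show whether the AP-2 peaks differ from all peaks in this respect. The AP-2 type motif occurred in 6 of the 52 AP-2 peaks and in 12.6% of all peaks. A match describes the letters in these windows and not binding. The AP-2 peaks were shorter than the rest, with a median length of 193 bp against 249 bp, and their median GC content was 54.2% against 52.1%.

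*Tfap2a*, which spans 40715302 to 40738376 of chromosome 13 (minus strand), held most of the calls. Among its 25 peaks were 6 lower (24%) and 3 higher (12%) calls in *Hox13*-/-, against 8.31% and 11.4% of all peaks. The median difference was −0.06. The lower calls numbered 3 without WT replicate 1, 3 without *Hox13*-/- replicate 2 and 1 among the upper 50% of peaks by mean rLog. Only 10 of the 25 peaks belong to that upper 50%. In the fit of all peaks the lower calls lay mostly on the downstream side. Inside the gene the 4 peaks had differences of −0.30 to −0.13, none of them called, although the peak at +15.5 kb was called lower after median centring (−0.34) and quantile normalization (−0.35). Beyond its 3′ end 5 of 10 peaks were lower (50%) and 2 were higher (20%). The caller found 4 of these 10 peaks only in WT libraries and 4 only in *Hox13*-/- libraries. Calls among them are therefore not independent of how the peaks were picked. Upstream 1 of 11 was lower and 1 was higher (9.09% each), near the shares over all peaks. Among the 6 peaks between 1 and 50 kb from the gene start, all downstream of it, every difference was negative, with a median of −0.29, and 2 were called lower. The caller found 5 of these 6 only in WT libraries, against 16.6% of all peaks. All 17 AP-2 peaks found only in WT had a negative difference, so the common sign is not independent of how the peaks were picked. Between 50 and 150 kb the median was 0.14 over 8 peaks, with 1 lower and 2 higher, and between 150 and 300 kb it was −0.01 over 11 peaks, with 3 lower and 1 higher. The coding gene start nearest to the peak was that of *Tfap2a* itself for 12 of the 25, with 4 lower and 1 higher. At the other peaks, another coding gene start was nearer.

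No peak lay within 1 kb of the 5′ end of *Tfap2a* as GENCODE gives the gene. The gene has 9 annotated transcripts, and 2 peaks inside it were within 1 kb of the start of a shorter one. The peak at +6.7 kb, from 40731544 to 40731731, is 30 bp from such a start and holds 2 AP-2 type matches. Its rLog was 3.81 and 3.80 in the WT libraries and 3.57 and 3.52 in the *Hox13*-/- libraries, a difference of −0.27 (limma, SE 0.123, adjusted p = 0.11). Both mutant libraries were below both WT libraries, and the peak did not pass the test. The peak at +7.6 kb, from 40730629 to 40730939, is 341 bp from a transcript start. Its values were 4.53 and 4.06 in WT and 3.98 and 4.07 in *Hox13*-/-, and here the genotypes overlapped. Without WT replicate 2 it was called lower (−0.51, limma adjusted p = 0.017). Both peaks were found by the authors' peak caller only in WT replicate 1, and both also lie in an intron of *Gm26688*. They were singled out for their position after the values had been seen.

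The lower peaks nearest to *Tfap2a* form a neighbouring pair in intergenic sequence 3′ of the gene. At +37.8 kb, from 40700444 to 40700619, rLog was 4.30 and 4.28 in WT and 3.84 and 3.60 in *Hox13*-/-, and the groups were well apart. The difference was −0.57 (limma, SE 0.127, adjusted p = 1.3e-04), and it stayed under the threshold in every alternative that tested this peak. The neighbouring peak at +37.6 kb, from 40700757 to 40700881, had 3.78 and 4.02 in WT and 3.37 and 3.47 in *Hox13*-/-. It differed by −0.48 (limma, SE 0.123, adjusted p = 0.0012), and without WT replicate 2 by −0.36 with an adjusted p of 0.086 in limma. The caller found these peaks in WT libraries and in no *Hox13*-/- library.

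Further downstream there were both lower and higher peaks. The peak at +92.1 kb, from 40646105 to 40646538, fell from 5.84 and 5.49 in WT to 5.01 and 5.16 in *Hox13*-/-, a difference of −0.58 (limma, SE 0.131, adjusted p = 1.8e-04). WT replicate 1 was the highest library there, and without it the difference was −0.41 with a limma adjusted p of 0.072. Farther along, the peak at +131.4 kb, from 40606792 to 40607235, rose from 5.52 and 5.69 in WT to 6.07 and 6.21 in *Hox13*-/-. This difference of 0.53 (limma, SE 0.130, adjusted p = 5.7e-04) held in every alternative that tested it, and the caller found the peak in both mutant libraries and in no WT library. The adjacent peak at +131.8 kb had 4.18 and 4.15 in WT and 4.13 and 4.19 in *Hox13*-/-, which overlap.

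The strongest increase around *Tfap2a* was farther away. At +276.6 kb, from 40461631 to 40461972, rLog rose from 4.81 and 4.98 in WT to 5.61 and 5.43 in *Hox13*-/-, a difference of 0.63 (limma, SE 0.131, adjusted p = 3.8e-05), which held in every alternative that tested it. This peak is intergenic, and the coding gene start nearest to it is that of *Ofcc1*, relative to which it lies at −100.4 kb. The peak at +162.8 kb, from 40575472 to 40575641, had 4.18 and 4.32 in WT and 3.93 and 3.79 in *Hox13*-/-, and differed by −0.39 (limma, SE 0.128, adjusted p = 0.017). Its adjusted p was 0.17 without either WT replicate 2 or *Hox13*-/- replicate 2. A sixth lower peak at +219.1 kb, named although it lies outside the limit of 5 peaks per gene, had 3.60 and 3.43 against 3.25 and 3.12 and a difference of −0.33 (limma, SE 0.119, adjusted p = 0.033). It was not called without WT replicate 1 (−0.25), without *Hox13*-/- replicate 2 (−0.26) or after GC correction (−0.24).

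Upstream of *Tfap2a* the called peaks lie at *Gcnt2*, which encodes a glycosyltransferase that makes the branched I blood group antigen. The peak at −121.4 kb, from 40859490 to 40859995, sits 12 bp from the *Gcnt2* start and holds 2 HOX13-type matches. Its rLog was 6.04 and 6.41 in WT and 6.66 and 6.74 in *Hox13*-/-, so both mutant libraries were higher. The difference was 0.48 (limma, SE 0.128, adjusted p = 0.0022), and without WT replicate 1 it was 0.30 with a limma adjusted p of 0.19. In an intron of *Gcnt2*, the peak at −185.6 kb, from 40923871 to 40924080, had 4.80 and 4.44 in WT and 4.31 and 4.15 in *Hox13*-/-. This difference of −0.39 (limma, SE 0.130, adjusted p = 0.020) was −0.21 without WT replicate 1 and −0.31 without *Hox13*-/- replicate 2, with limma adjusted p of 0.44 and 0.21. The *Tfap2a* peak with the highest signal per kilobase, at −277.9 kb, lies over the start of *Tmem14c*, and its values of 7.19 and 7.30 in WT and 7.06 and 7.05 in *Hox13*-/- did not pass the test (−0.19, limma adjusted p = 0.29).

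**Figure D2:**
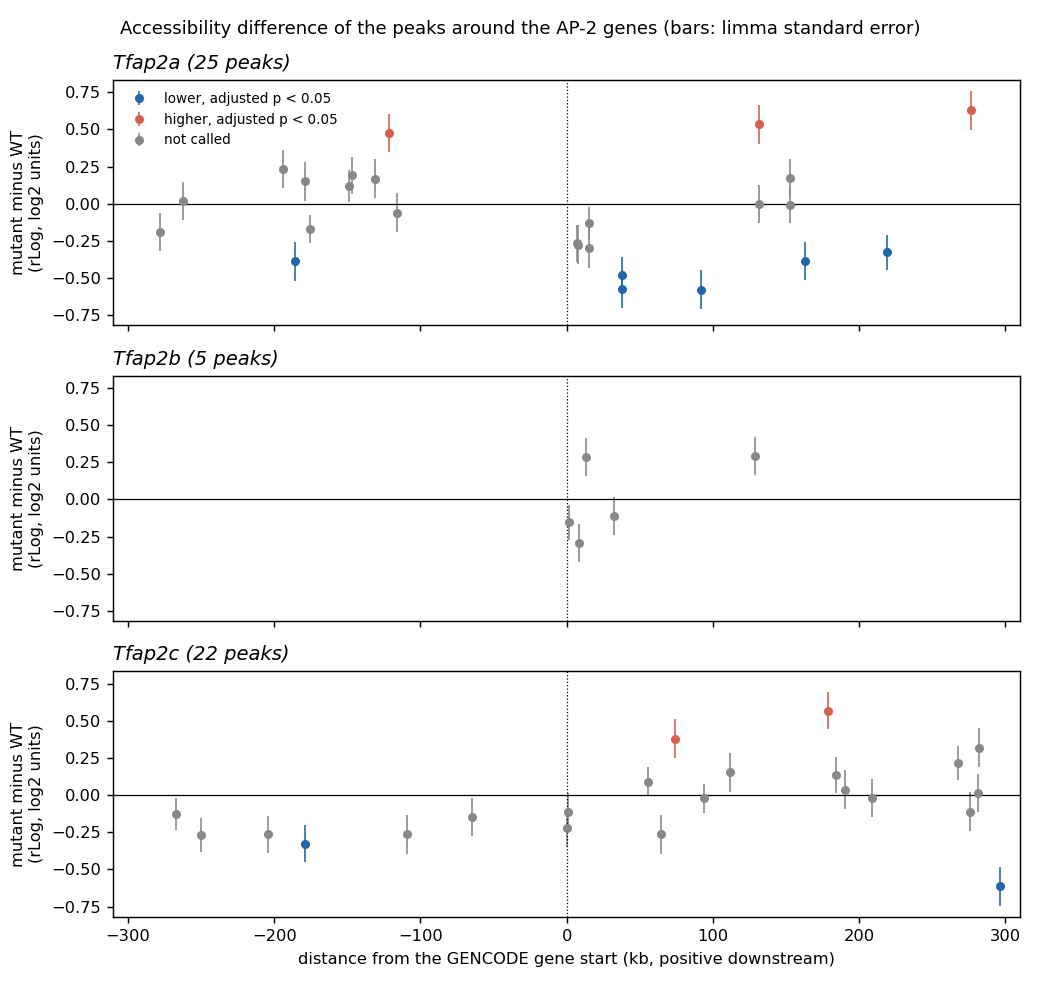
Difference in rLog, *Hox13*-/- minus WT (y axis, log2 units, bars are the limma standard error), for each AP-2 peak against its distance from the GENCODE start of its gene (x axis, kb, positive downstream). The 6 *Tfap2a* peaks between 1 and 50 kb all lie below 0, the 5 *Tfap2b* peaks are not called, and the 7 upstream *Tfap2c* peaks all lie below 0. The caller found 5 of these 6 *Tfap2a* peaks and 4 of these 7 *Tfap2c* peaks only in WT libraries. Their sign is therefore not independent of how the peaks were picked.

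*Tfap2b* and *Tfap2d* lie next to each other on chromosome 1, *Tfap2b* from 19208914 to 19238576 and *Tfap2d* from 19103022 to 19166346, both on the plus strand. Little open chromatin was listed there. *Tfap2d* had no peak inside it or within 300 kb that was not nearer to *Tfap2b*, and the closest peak on its upstream side lay at −642.3 kb. *Tfap2b* had 5 peaks, 3 inside the gene and 2 downstream, and no peak within 1 kb of any of its 5 annotated transcript starts. None of the 5 passed the test, with 1 lower and 2 higher at an unadjusted p under 0.05 in limma, where 14.9% and 16.9% of all peaks had such a p. The peak at +8.6 kb was called lower under median centring and under GC correction, and that at +128.5 kb higher without *Hox13*-/- replicate 1. A peak that misses the threshold is not shown to be the same in both genotypes, and the standard error of these differences was 0.118 to 0.131.

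Within *Tfap2b* the directions differed between neighbouring peaks. At +1.5 kb the values were 3.49 and 3.28 in WT and 3.14 and 3.32 in *Hox13*-/-, which overlap. At +8.6 kb they were 4.10 and 3.88 in WT and 3.58 and 3.81 in *Hox13*-/-, a difference of −0.29 (limma, SE 0.126, adjusted p = 0.081), with the genotypes apart. The same peak was called lower after median centring (−0.33, limma adjusted p = 0.046) and after GC correction (−0.38, limma adjusted p = 0.019). At +13.0 kb, from 19221787 to 19222004, they were 3.84 and 3.98 in WT and 4.16 and 4.23 in *Hox13*-/-, a difference of 0.28 (limma, SE 0.128, adjusted p = 0.10), again with the genotypes apart but the other way. The first of these was found by the caller only in WT replicate 1, as was the second, and the third only in *Hox13*-/- replicate 2.

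The *Tfap2b* peak with the highest signal per kilobase was at +128.5 kb, from 19337291 to 19337612. Its mean signal per kilobase was 7.39 on the log2 scale, the caller found it in all 4 libraries, and its rLog was 5.52 and 5.69 in WT and 5.73 and 6.06 in *Hox13*-/-. The difference of 0.29 (standard error 0.130) had a limma adjusted p of 0.096. Without *Hox13*-/- replicate 1, the lower of the mutant libraries, the difference was 0.46 and its adjusted p 0.039. The only other *Tfap2b* peak found in all 4 libraries lies at +32.6 kb, past the end of the gene, with 4.56 and 4.64 in WT and 4.58 and 4.39 in *Hox13*-/-, which overlap.

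*Tfap2c*, which spans 172549593 to 172558622 of chromosome 2 (plus strand), had 22 peaks, of which 2 were lower and 2 were higher (9.09% each). Shares over all peaks of the table were close to these, with 8.31% lower and 11.4% higher. The median difference of the *Tfap2c* peaks was −0.07. All 7 upstream peaks had a negative difference, from −0.33 to −0.13, and 1 was called, while the 14 downstream peaks had a median of 0.06 with 1 lower and 2 higher. Over all peaks 31472 of 61954 differences were negative. The caller found 4 of the 7 upstream peaks only in WT libraries and none only in *Hox13*-/- libraries. Their common sign is therefore not independent of how the peaks were picked. The peak inside the gene was not called. The upstream peaks include the start sites of *Fam210b*, *Cstf1* and *Rtf2*, and the coding gene start nearest to the peak was that of *Tfap2c* itself for 10 of the 22.

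*Tfap2c* was the only AP-2 gene with a peak over the start of the gene. The peak from 172549410 to 172549607 is centred at −85 bp from the start, and its GC content was 71.7%. Its rLog was 4.50 and 4.12 in WT and 4.08 and 4.09 in *Hox13*-/-, a difference of −0.22 (limma, SE 0.129, adjusted p = 0.23). The gap between the WT libraries was larger than that difference. Next to it, at +1.0 kb, from 172550439 to 172550842, the values were 5.35 and 5.01 in WT and 5.02 and 5.11 in *Hox13*-/-, which overlap. This peak is 13 bp from the start of a shorter *Tfap2c* transcript.

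The clearest increase around *Tfap2c* was at +178.9 kb, from 172728188 to 172728768, in intergenic sequence. The caller found this peak in all 4 libraries, and it held both a HOX13-type and an AP-2 type match. Its rLog rose from 6.18 and 6.44 in WT to 6.93 and 6.83 in *Hox13*-/-, and the difference of 0.57 (limma, SE 0.128, adjusted p = 1.5e-04) held in every alternative. At +74.3 kb, from 172623777 to 172624082, replicates were closer together, with 4.84 and 4.83 in WT and 5.21 and 5.21 in *Hox13*-/-. The difference of 0.38 (limma, SE 0.131, adjusted p = 0.024) stayed at 0.38 with any 1 library left out, but each time with a limma adjusted p above the threshold (0.097 to 0.11). It was also not called after quantile (0.34) or cyclic loess normalization (0.33) or GC correction (0.30).

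The clearest decrease was at the far end of the window. At +296.7 kb, from 172846078 to 172846484, rLog fell from 5.27 and 5.09 in WT to 4.54 and 4.59 in *Hox13*-/-. The difference was −0.61 (limma, SE 0.131, adjusted p = 6.5e-05) and held in every alternative that tested it, and the caller found the peak in both WT libraries and in no mutant library. The coding gene start nearest to it is that of *Bmp7*, 94.0 kb away, which encodes a secreted BMP ligand. Just outside the limit of 300 kb, at +302.0 kb, the next peak had 2.78 and 2.63 in WT and 2.47 and 2.36 in *Hox13*-/- and was also lower (−0.29, limma adjusted p = 0.030). It is not counted among the AP-2 peaks. On the other sides the first peaks outside had differences of −0.16 (*Tfap2a*, −341.3 kb), 0.12 (*Tfap2a*, +305.8 kb) and 0.05 (*Tfap2c*, −308.4 kb), none called. The outermost upstream *Tfap2c* peak inside the window, at −267.4 kb, had a difference of −0.13. The second lower peak of *Tfap2c*, at −178.7 kb, from 172370418 to 172371371, covers the start of *Cstf1*, an mRNA cleavage factor gene. It had 7.72 and 7.68 in WT and 7.41 and 7.34 in *Hox13*-/- and differed by −0.33 (limma, SE 0.125, adjusted p = 0.045). The call was lost in 8 of the 12 alternatives, among them the fit with a replicate block (adjusted p = 0.053), both quantile and cyclic loess normalization (−0.27 and −0.24) and the omission of any 1 library (adjusted p of 0.092 to 0.24). The highest signal per kilobase of any AP-2 peak, 8.31 on the log2 scale, was at −204.2 kb over the start of *Fam210b*, with 7.68 and 7.96 in WT and 7.56 and 7.56 in *Hox13*-/-. It was not called (−0.26, limma adjusted p = 0.12), but without WT replicate 1 the difference was −0.40 with an adjusted p of 0.044.

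**Figure D3:**
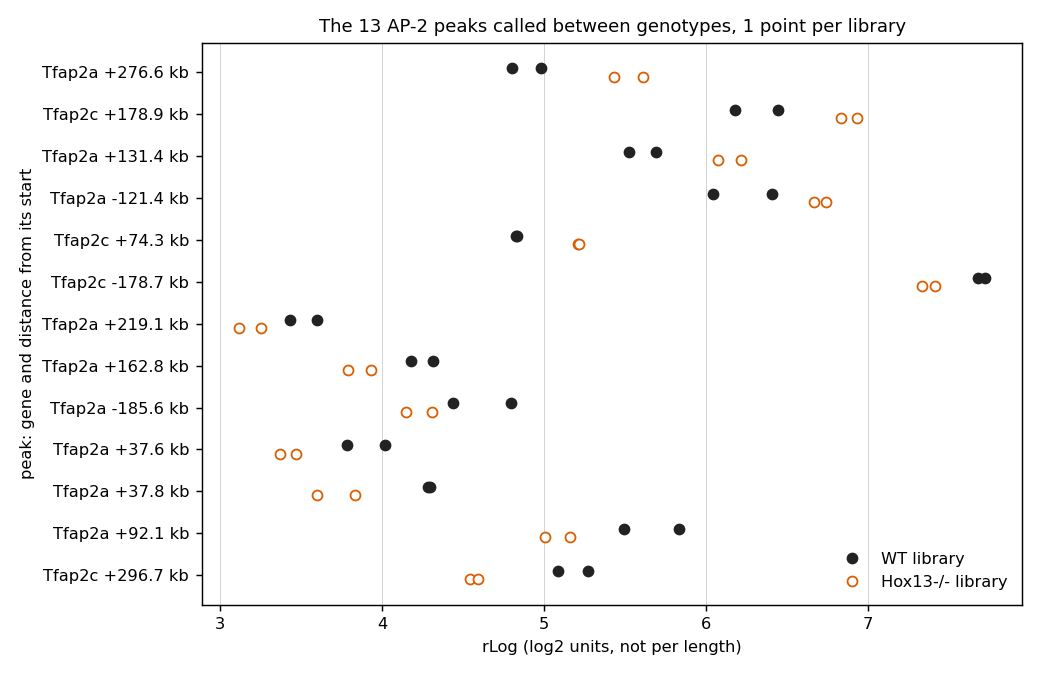
rLog in each library (x axis, log2 units, not per length) at the 13 AP-2 peaks called at a limma adjusted p under 0.05, named by gene and distance from its start (y axis) and ordered by difference. Filled points are WT and open points *Hox13*-/- libraries. At all 13 peaks the libraries of the genotypes do not overlap. The same held at 5062 of the 5146 lower and 7014 of the 7040 higher peaks of the whole table, so it adds little to the call.

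The authors' caller had found 17 AP-2 peaks only in WT libraries (32.7%, against 16.6% of all peaks), 13 only in *Hox13*-/- libraries (25.0%, against 32.2%) and 22 in both genotypes (42.3%, against 51.2%). Of the 17 peaks found only in WT, 6 were lower in limma (35.3%, against 25.5% of all peaks found only in WT) and none higher, and of the 13 found only in *Hox13*-/-, 3 were higher (23.1%, against 20.8%) and none lower. These are the same libraries as in the test, so these counts are not independent of the test. The libraries also differed in how many peaks they gave, from 27241 of all peaks in WT replicate 2 to 45587 in *Hox13*-/- replicate 2, and WT replicate 1 held 36 of the AP-2 peaks against 20 in WT replicate 2.

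Because AP-2 genes are also genes of the ectoderm, peaks at the start sites of cell type markers were read beside these results. Of 13 limb ectoderm markers, 4 had a peak within 1 kb of the gene start (*Epcam*, *Cdh1*, *Sp8* and *Perp*), and *Trp63*, *Krt5* and *Krt14* had none. The 4 peaks had a mean rLog of 4.22 and 3.99 in WT and 4.03 and 3.97 in *Hox13*-/-, differences of −0.15 to 0.01, and none was called. What part the ectoderm has in the AP-2 differences was not tested. Limb mesenchyme markers had 11 peaks at 4 of 6 genes (*Prrx1*, *Twist1*, *Msx1* and *Pdgfra*), with 1 lower, where 8.31% of all peaks were, and a median of −0.10. Endothelial markers had 2 peaks at 2 of 6 genes, muscle precursor markers 2 peaks at 1 of 5, and neural crest and Schwann cell precursor markers 3 peaks at 2 of 5, none of them called. No peak was listed at the start of any of 5 blood markers. The table covers autosomes, so *Gata1*, on the X chromosome, could not have had a peak.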

How the data were processed

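Per the methods and the submitters' processing notes, the authors used Bowtie2 2.3.1 to place paired reads of 50 bp on mm10, called peaks in each library against an input with MACS2 2.1.1.20160309, merged them with HOMER 4.9.1 and ran DESeq2 through HOMER. Removal of duplicates, blacklisted regions and the Tn5 offset are not given in the sources used here. The authors deposited rLog values, on a log2 scale, for 61954 peaks on the 19 autosomes in 4 distal libraries, and the names of the libraries in which each peak was called. The table also holds the authors' own fold change and p-values for the genotypes, which were not used. The 2 proximal libraries were not analysed here.

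The genotypes were compared in limma 3.58.1 (R 4.3.3) over every peak at once (1 term for genotype, variance trend on mean signal, two-sided, Benjamini-Hochberg adjusted), since a count model needs counts. In simulated data of 61954 peaks limma found 200 of 200 peaks given a log2 change of 1.5 and 154 of 200 given 0.5, with 16 and 30 other peaks called. The simulated noise was normal and independent between libraries, its spread was set by the mean signal, and all other peaks were left unchanged. These counts therefore check the fit under its own assumptions and do not give its error rate in the real libraries. Signal per kilobase is rLog minus log2 of the peak length in kb. Gene positions are from GENCODE M21 and sequence from GRCm38, read with pysam 0.24.0, and coordinates are as the table gives them.

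Peaks named with values were those within 1 kb of a gene start, up to 5 lower and 5 higher called peaks per gene by smallest p, the peak of highest signal per kilobase away from the start, the *Tfap2b* peak nearest to +31 kb, and peaks at the edge of the window, with the exceptions stated. The AP-2 genes, the marker lists and the tests were chosen with earlier results of these data known. Alternatives were median, quantile and cyclic loess scaling, no variance trend, filters on mean rLog, a replicate block, a GC correction, omission of each library, other thresholds, all transcript starts and a shorter distance limit. Some sequences and 1 result are not reported here.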

Additional observations from a re-analysis of the deposited data

How the results depend on the processing

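The count of lower AP-2 peaks, 8 in the fit as reported, was 3 among the upper 50% of peaks by mean rLog, 3 within 100 kb of the gene starts and 4 at an adjusted p under 0.01, and the higher count of 5 was 1 within 100 kb. The upper 50% held 20 AP-2 peaks and the shorter limit 18, in place of 52, so fewer calls there do not mean a smaller share. With 1 library left out, lower peaks numbered 4 to 8 (5 without WT replicate 1, 4 without *Hox13*-/- replicate 2) and higher peaks 3 to 5 (3 without WT replicate 1). At a fold change of 1.5 in rLog, in place of 2, 1 peak was lower and 1 was higher. The median difference of −0.09 was −0.19 within 100 kb and reversed to 0.094 among the upper 50% of peaks, a setting with fewer peaks. It was −0.034 without WT replicate 1, −0.046 without *Hox13*-/- replicate 2, −0.088 at its lowest with 1 library left out, and −0.046 after GC correction. In the other settings tried both counts stayed within 1.5 times. The replicate block gave 7 lower and 5 higher AP-2 peaks. Replicate numbers did not pair the libraries, each of which came from its own embryo, and deviations of same-numbered libraries correlated at −0.01 across peaks. The naming rule gave 17 peaks, and of their 197 combinations with an alternative, 173 kept direction and side of the threshold. Another 22 lost the call, most of them with a library left out, 2 gained it and none changed sign. At all 17 but *Tfap2b* +32.6 kb the genotypes do not overlap, so leaving out a library could not change the sign there. Outside these 17, *Tfap2a* +219.1 kb lost its call after GC correction. *Tfap2a* +15.5 kb and *Tfap2b* +8.6 kb gained a call under median centring. Centring each library on its median gave 11 lower and 5 higher peaks. Depth per peak is unknown, and 2 libraries per genotype limit every call.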

Other observations

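Genes that work with AP-2 proteins were read at their own start sites, from lists chosen with earlier results of these data known. Of 9 AP-2 partners, 6 had a peak within 1 kb of the start, and of their 13 peaks 2 were lower in *Hox13*-/- distal limbs and none was higher, where 8.31% and 11.4% of all peaks were, with a median difference of −0.14. The lower peaks were at *Kctd1*, which encodes a repressor of AP-2 activity, and at *Cited4*, which encodes a co-activator. At *Kctd1* rLog was 6.58 and 6.89 in WT and 6.38 and 6.23 in *Hox13*-/- (−0.43, standard error 0.128, limma adjusted p = 0.0071), and the call was lost without WT replicate 2 (−0.28) or *Hox13*-/- replicate 2 (−0.35). At *Cited4* it was 5.69 and 5.68 against 5.38 and 5.27 (−0.36, standard error 0.130, limma adjusted p = 0.034), and the call was lost after GC correction (−0.21) and with any 1 library left out. *Cited1* is on the X chromosome, which has no peaks in the table.

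Among epidermal regulators, *Grhl1*, *Grhl3* and *Klf4* had 1 start-site peak each, with differences of −0.22, −0.29 and −0.02, none of them called in limma. No peak was listed at the starts of *Trp63*, *Grhl2*, *Ovol1* and *Ovol2*.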
